A study of Homo sapiens with 12 samples.

Results

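The genes described here are the amino acid transporters, taken as every gene whose symbol places it in 1 of 7 solute carrier families: SLC1, SLC3 (its members SLC3A1 and SLC3A2), SLC6, SLC7, SLC36, SLC38 and SLC43. The table held 58 of them among 20114 genes, and 39 of the 58 were among the 13872 genes with enough counts to test. The choice used names and no measured value, so it holds some members of these families that carry other solutes, such as the creatine carrier SLC6A8 and the serotonin carrier SLC6A4. The cells were T47D, an established human breast carcinoma line that carries the progesterone receptor. They were synchronised by serum starvation in phenol red-free medium with charcoal-stripped serum, non-essential amino acids and pyruvate, in all groups, and then given vehicle or a progestin that the labels do not name. RNA was taken after 6 h with vehicle, 100 pM or 10 nM, and after 18 h with vehicle, 100 pM or 10 nM, with 2 libraries in each of these 6 groups, labelled replicate 1 and replicate 3. The question of the series is how breast cancer cells answer low against high progestin.

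Cells take up amino acids through carriers of overlapping substrate range. SLC7 light chains reach the plasma membrane bound to a heavy chain, SLC3A2 (also called 4F2hc or CD98) or SLC3A1, and exchange one amino acid for another. The SLC1, SLC6 and SLC38 carriers use the sodium gradient, and some SLC36 carriers move amino acids with protons. The SLC43 carriers let large neutral amino acids pass down their gradient. The amount of these carriers is known to be set partly by the amino acid response, in which the transcription factor ATF4 acts on genes of amino acid supply, and by growth signals, and mammary epithelium is known for high amino acid uptake.

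Each library held 34204970 to 41373890 counts, of which the 58 transporters made up 0.224% to 0.431%. Levels are given as CPM, counts scaled to a common library size, and a single library is written as its treatment and replicate number, such as vehicle 3. Of 9 luminal markers all were detected, and their summed level was 11701 and 11773 CPM in vehicle at 6 h, 7008 and 7038 CPM at 10 nM for 6 h, 11141 and 11803 CPM in vehicle at 18 h and 5332 and 5423 CPM at 10 nM for 18 h. The lists for other cell types stayed low. Their summed levels were 3.57 to 13.3 CPM for 6 basal markers, 2.19 to 3.97 CPM for 5 immune markers, nearly all from CD68, and 0.104 to 0.927 CPM for 3 endothelial markers, and the 72.2 to 120 CPM of 5 fibroblast markers came almost wholly from COL1A1 (66.1 to 114 CPM). Neural markers, of interest because many SLC1 and SLC6 carriers serve the nervous system, summed to 3.27 to 25.8 CPM, of which SYT1 made up 3.24 to 25.7 CPM. That list was lower at 10 nM (3.27 and 3.89 CPM at 6 h, 10.5 and 12.02 CPM at 18 h) than in vehicle (21.4 and 25.8, then 21.5 and 22.7 CPM), while RBFOX3, SNAP25 and GFAP each had 0 in at least 1 library and at most 0.128 CPM. The part of these marker shifts in the transporter results was not tested, and in bulk RNA a change in the number of expressing cells and one in RNA per cell cannot be told apart. The share of counts from 13 mitochondrially encoded genes was 6.69% to 10.8%. The labels leave unsaid whether the 2 libraries of a group are separate cultures, so the p-values rest on a spread between samples that may be technical. In the fit used here that spread also takes in the gap between replicate numbers, so changes may go uncalled. The coefficient of variation between libraries that edgeR gave over all genes was 0.163 in this fit. With the replicate number as a block it was 0.0678.

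Progestin changed the transporters in both directions, and more of them at 10 nM than at 100 pM. A gene is called here when edgeR's quasi-likelihood test gave an adjusted p under 0.05 over all 13872 genes. At 100 pM for 6 h, 1 of the 39 was called, SLC7A8, and it was higher (2.56%, against 3.48% of all genes, 2.88% higher and 0.606% lower). At 10 nM for 6 h, 12 were higher and 5 lower than vehicle (43.6%, against 42.0% of all genes, 22.6% higher and 19.4% lower). At 18 h, 100 pM left 4 higher and 3 lower (17.9%, against 10.5%, of which 6.57% higher and 3.89% lower), and 10 nM left 13 higher and 4 lower (43.6%, against 34.1%, of which 19.0% higher and 15.2% lower). Between the doses, 10 nM had 8 higher and 4 lower than 100 pM at 6 h (30.8%, against 37.0%, of which 20.1% higher and 16.8% lower) and 7 higher and 2 lower at 18 h (23.1%, against 26.2%, of which 14.8% higher and 11.4% lower). At 10 nM for 6 h the share of transporters called was thus close to that of all genes. SLC6A13 and SLC7A7, called higher in both 10 nM comparisons at 18 h, had enough counts to test only through the 10 nM libraries of that time. The median log2 fold change of the 39 was 0.0058 at 100 pM and 0.29 at 10 nM for 6 h, where all genes had -0.019 and -0.020, and 0.015 and 0.13 at 18 h, where all genes had -0.035 and -0.0020. The 2 doses share the vehicle libraries of their time.

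Over the 4 comparisons of a dose with vehicle, 22 of the 39 were called at least once (56.4%, against 55.4% of all genes) and 17 never. Of the 22, 16 were only higher (41% of the 39, against 29.1% of all genes), 5 were only lower (12.8%, against 24.5%) and 1, SLC43A2, was lower at 100 pM and higher at 10 nM (2.56%, against 1.80%). The 16 include SLC6A13 and SLC7A7, which had enough counts to test only through the 10 nM libraries of 18 h. SLC7A8 was the only transporter higher in all 4 (2.56%, against 1.58%), and none was lower in all 4 (0.360% of all genes). The share called at least once was thus close to that of all genes. In vehicle alone, none of the 39 was called different between 6 h and 18 h (0 called among all genes, 0%, by edgeR or DESeq2). The median absolute log2 fold change there was 0.19 for the 39 and 0.092 for all genes, so smaller shifts are not excluded. At an unadjusted p under 0.05 both tools gave 0 transporters there, and edgeR gave 178 genes in all. The map of log2 fold changes shows the calls gene by gene.

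**Figure D1:**
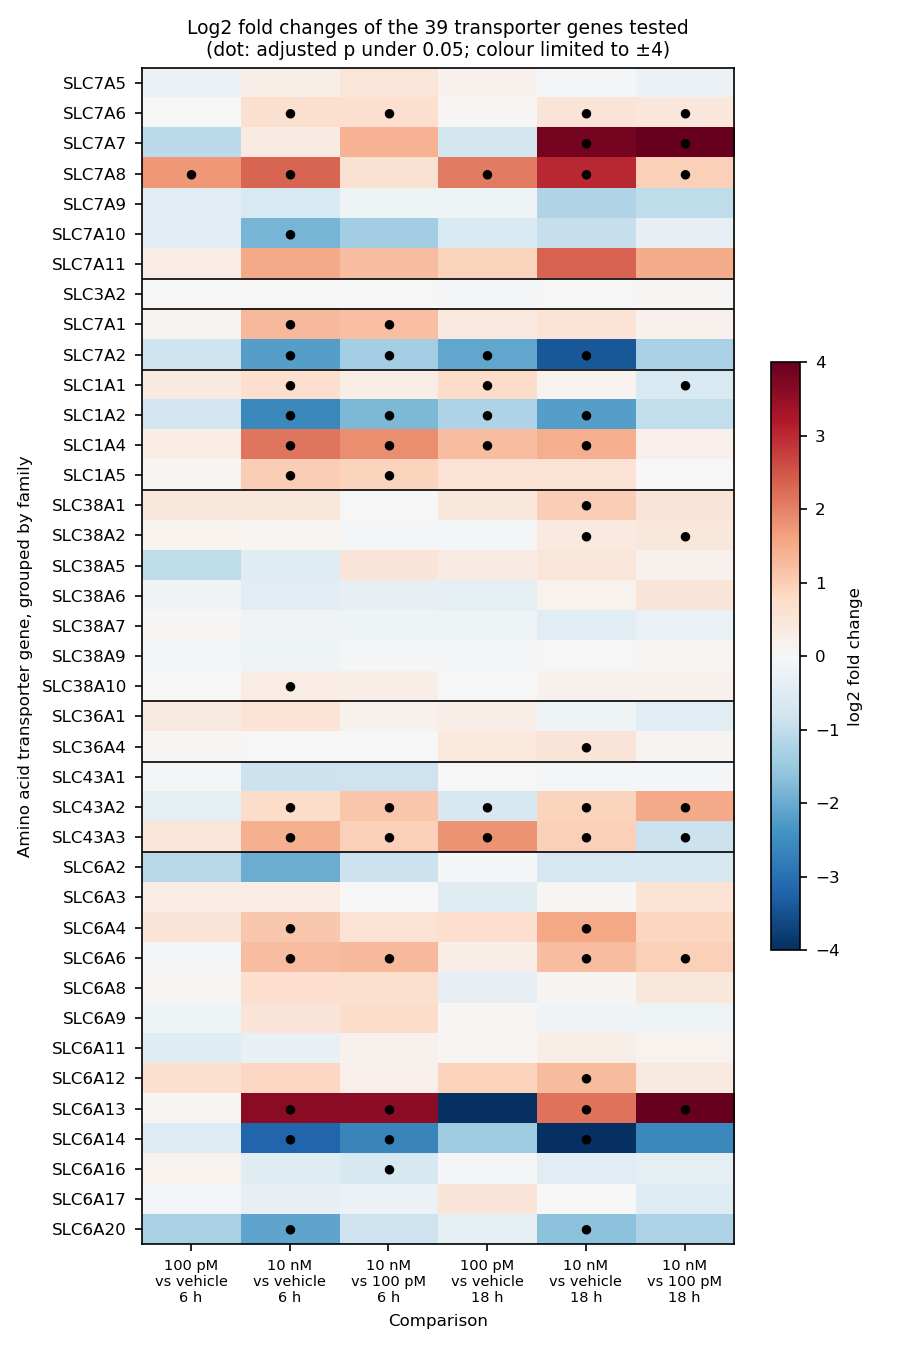
Log2 fold changes (colour, limited to 4 in either direction) of the 39 tested transporters (rows, by family) in 6 comparisons (columns), with a dot where the gene was called. The first column has 1 dot, and the 10 nM versus vehicle columns have 17 each.

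Sequences around a transcription start of 6 members are printed for the motifs found in them. RefSeq (GRCh38.p14) gave windows of 300 bases, 250 before and 50 after a transcription start, for 44 of the 58 transporters, 31 of the 39 tested, with 66 windows because some genes have several starts. Each was searched on both strands for 4 motifs: CACGTG, the E-box bound by MYC and its relatives, TGATGNAA, the core of the composite element bound by C/EBP and ATF4 factors in the amino acid response, and 2 forms of the steroid receptor site, the single arm TGTTCT and the spaced palindrome ACANNNTGT. CACGTG was in 10 of the 66 transporter windows (15.2%) and in 7.26% of all 35116 windows. TGATGNAA was in 6 (9.09%, against 3.62%). TGTTCT was in 6 (9.09%, against 14.8%), and ACANNNTGT in 5 (7.58%, against 5.37%). The 5 tested members with TGATGNAA were SLC1A4, SLC1A5, SLC38A1, SLC3A2 and SLC7A1. A match is a string of letters in this window, not a bound site. The windows below run 5′ to 3′ along the gene's strand, with matched motifs in capitals. SLC7A8, higher in all 4 comparisons with vehicle, has CACGTG in the window of 1 of its 4 listed starts (chr14:23154344-23154643, minus strand). SLC7A5, not called in any comparison, has it in the window of its single start (chr16:87869458-87869757, minus strand). SLC3A2 (chr11:62881449-62881748, plus strand, 1 of 3 starts) and SLC1A4 (chr2:64989149-64989448, plus strand, 1 of 2 starts) have TGATGNAA on the opposite strand. SLC7A1 (chr13:29595639-29595938, minus strand, its single start) and SLC1A5 (chr19:46784765-46785064, minus strand, 1 of 3 starts) have it on the gene's strand. Counted from the start, the TGATGNAA matches of SLC3A2 and SLC7A1 begin at positions 38 and 8, downstream of it. Those of SLC1A4 and SLC1A5 begin at -7 and -97.
SLC7A8: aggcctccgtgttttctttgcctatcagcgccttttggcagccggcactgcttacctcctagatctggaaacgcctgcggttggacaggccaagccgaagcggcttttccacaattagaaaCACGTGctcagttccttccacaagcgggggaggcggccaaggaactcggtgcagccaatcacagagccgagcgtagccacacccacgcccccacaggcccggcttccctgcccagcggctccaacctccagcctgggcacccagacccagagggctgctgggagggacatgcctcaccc
SLC7A5: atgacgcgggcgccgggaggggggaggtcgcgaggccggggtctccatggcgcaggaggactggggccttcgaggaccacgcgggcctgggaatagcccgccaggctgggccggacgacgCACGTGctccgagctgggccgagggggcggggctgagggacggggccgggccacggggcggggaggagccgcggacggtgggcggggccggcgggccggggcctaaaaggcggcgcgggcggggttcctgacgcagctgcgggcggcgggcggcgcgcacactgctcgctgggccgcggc
SLC3A2: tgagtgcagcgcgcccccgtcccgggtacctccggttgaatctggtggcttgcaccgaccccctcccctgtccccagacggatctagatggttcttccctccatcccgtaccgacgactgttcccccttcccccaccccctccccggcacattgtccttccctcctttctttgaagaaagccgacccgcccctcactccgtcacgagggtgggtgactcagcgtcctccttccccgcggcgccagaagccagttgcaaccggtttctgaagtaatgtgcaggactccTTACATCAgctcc
SLC7A1: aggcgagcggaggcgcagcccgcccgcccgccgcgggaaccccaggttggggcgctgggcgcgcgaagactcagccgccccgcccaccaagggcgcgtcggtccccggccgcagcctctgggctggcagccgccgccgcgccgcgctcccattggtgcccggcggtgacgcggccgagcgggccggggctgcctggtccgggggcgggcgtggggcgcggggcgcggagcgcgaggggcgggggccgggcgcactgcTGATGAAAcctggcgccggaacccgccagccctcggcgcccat
SLC1A4: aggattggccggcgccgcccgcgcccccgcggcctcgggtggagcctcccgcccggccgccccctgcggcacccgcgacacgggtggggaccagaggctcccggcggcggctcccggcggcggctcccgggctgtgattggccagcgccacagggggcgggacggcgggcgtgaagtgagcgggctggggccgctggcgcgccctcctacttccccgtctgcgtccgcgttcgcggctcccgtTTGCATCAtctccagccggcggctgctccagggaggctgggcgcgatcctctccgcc
SLC1A5: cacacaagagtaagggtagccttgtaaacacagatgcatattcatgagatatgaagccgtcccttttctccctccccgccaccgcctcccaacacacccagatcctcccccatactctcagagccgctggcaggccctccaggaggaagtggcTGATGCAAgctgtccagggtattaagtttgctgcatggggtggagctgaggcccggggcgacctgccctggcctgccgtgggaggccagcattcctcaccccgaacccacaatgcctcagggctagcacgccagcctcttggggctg

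SLC7A8, the light chain LAT2 that exchanges large and small neutral amino acids, rose at both doses and both times. At 6 h it was 28.9 and 32.2 CPM in vehicle 1 and 3, 121 and 80.0 CPM at 100 pM, and 159 and 150 CPM at 10 nM. At 18 h the levels were 38.1 and 33.1 CPM, 188 and 114 CPM, and 333 and 245 CPM in the same order. Every treated library lay above every vehicle library of its time, and at each time every 10 nM library lay above both 100 pM libraries. The log2 fold change against vehicle was 1.72 ± 0.27 (SE, edgeR adjusted p = 0.00957) at 100 pM and 2.33 ± 0.28 (0.000253) at 10 nM for 6 h, then 2.08 ± 0.28 (0.00258) and 3.02 ± 0.29 (9.19e-05) at 18 h. The 10 nM level was above the 100 pM level by the test at 18 h (0.94 ± 0.27, adjusted p = 0.0314) and was not called different at 6 h. The call at 100 pM for 6 h was lost without vehicle 1 (adjusted p = 0.0990) or vehicle 3 (0.0694), and the dose difference at 18 h without 100 pM 3 (0.162), without 10 nM 1 (0.176) or with the 6 libraries of 18 h alone (0.0652).

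SLC7A5, the light chain LAT1 that brings in leucine and other large neutral amino acids, and SLC3A2, the heavy chain of SLC7A5, SLC7A8 and other light chains, were not called in any comparison. SLC7A5 had 448 and 246 CPM in vehicle at 6 h, 407 and 188 CPM at 100 pM and 506 and 323 CPM at 10 nM. The 18 h levels were 348 and 222 CPM, 422 and 220 CPM, and 306 and 240 CPM. The groups overlapped at each time, and replicate 1 was the higher library of every group. Its log2 fold change at 10 nM was 0.26 ± 0.47 at 6 h and -0.06 ± 0.47 at 18 h. SLC3A2 had 372 and 223 CPM in vehicle, 369 and 228 CPM at 100 pM and 362 and 238 CPM at 10 nM for 6 h, and 446 and 293, 440 and 265, then 420 and 303 CPM at 18 h. Within a replicate number its 10 nM to vehicle ratio was 0.972 and 1.07 at 6 h, and 0.943 and 1.03 at 18 h. The SE of the SLC3A2 fold change was 0.39 on the log2 scale in this fit, which takes in the gap between replicate numbers.

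The other light chains split. SLC7A6 (y+LAT2), which exchanges cationic for neutral amino acids, had 60.3 and 62.4 CPM in vehicle at 6 h, 60.5 and 60.5 CPM at 100 pM and 96.2 and 97.0 CPM at 10 nM. Its levels at 18 h were 55.6 and 64.7 CPM, 62.0 and 61.6 CPM, and 77.7 and 92.9 CPM. It stayed near vehicle at 100 pM and rose at 10 nM, by 0.65 ± 0.10 (edgeR adjusted p = 0.000923) at 6 h and 0.50 ± 0.10 (0.00473) at 18 h, and was also above 100 pM (0.68 ± 0.10, adjusted p = 0.000939, then 0.47 ± 0.10, 0.00914). SLC7A7 (y+LAT1), of the same activity, was near the detection limit except at 10 nM for 18 h, where it had 0.832 and 1.21 CPM against 0.112 and 0.0271 CPM in vehicle (3.82 ± 0.79, adjusted p = 0.00580). Its 72 counts at 10 nM for 18 h against 3 at 100 pM give a ratio of 25.2 (exact 95% binomial counting interval 8.29 to 125, adjusted p = 0.00480). SLC7A7 had enough counts to test only through that 10 nM group, so its 18 h calls are no independent support for a rise. SLC7A10, a carrier of small neutral amino acids, fell at 10 nM for 6 h, from 0.890 and 1.46 CPM to 0.221 and 0.423 CPM (-1.86 ± 0.51, adjusted p = 0.0170).

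For these 3, single libraries mattered as follows. The SLC7A6 difference between doses at 18 h lost its call without 100 pM 3 (adjusted p = 0.0510), without 10 nM 3 (0.0764) or with the libraries of 18 h alone (0.0640). The SLC7A7 rise at 10 nM was 5.07 without vehicle 1 and 3.15 without vehicle 3 on the log2 scale, both called, and against 100 pM it was 8.23 without 100 pM 1 and 3.65 without 100 pM 3, both called. The SLC7A10 fall lost its call without vehicle 3 (0.105) or 10 nM 1 (0.113).

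SLC7A11, the cystine and glutamate exchanger xCT that feeds glutathione synthesis, had a wide gap between replicate numbers. It had 10.4 and 2.10 CPM in vehicle 1 and 3 at 6 h, 11.1 and 4.31 CPM at 100 pM and 25.9 and 10.3 CPM at 10 nM. After 18 h the levels were 18.0 and 2.76 CPM, 28.5 and 9.46 CPM, and 79.8 and 26.2 CPM. In each group replicate 1 was 2.51 to 6.50 times replicate 3, so the groups overlapped except vehicle and 10 nM at 18 h. The log2 fold change at 10 nM was 1.53 ± 1.08 (edgeR adjusted p = 0.291) at 6 h and 2.36 ± 1.08 (0.129) at 18 h, neither called. Within replicate 1 the 10 nM to vehicle ratio was 2.48 at 6 h and 4.45 at 18 h, and within replicate 3 it was 4.90 and 9.50. At 100 pM these ratios were 1.06 and 2.05 at 6 h, and 1.59 and 3.42 at 18 h.

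**Figure D2:**
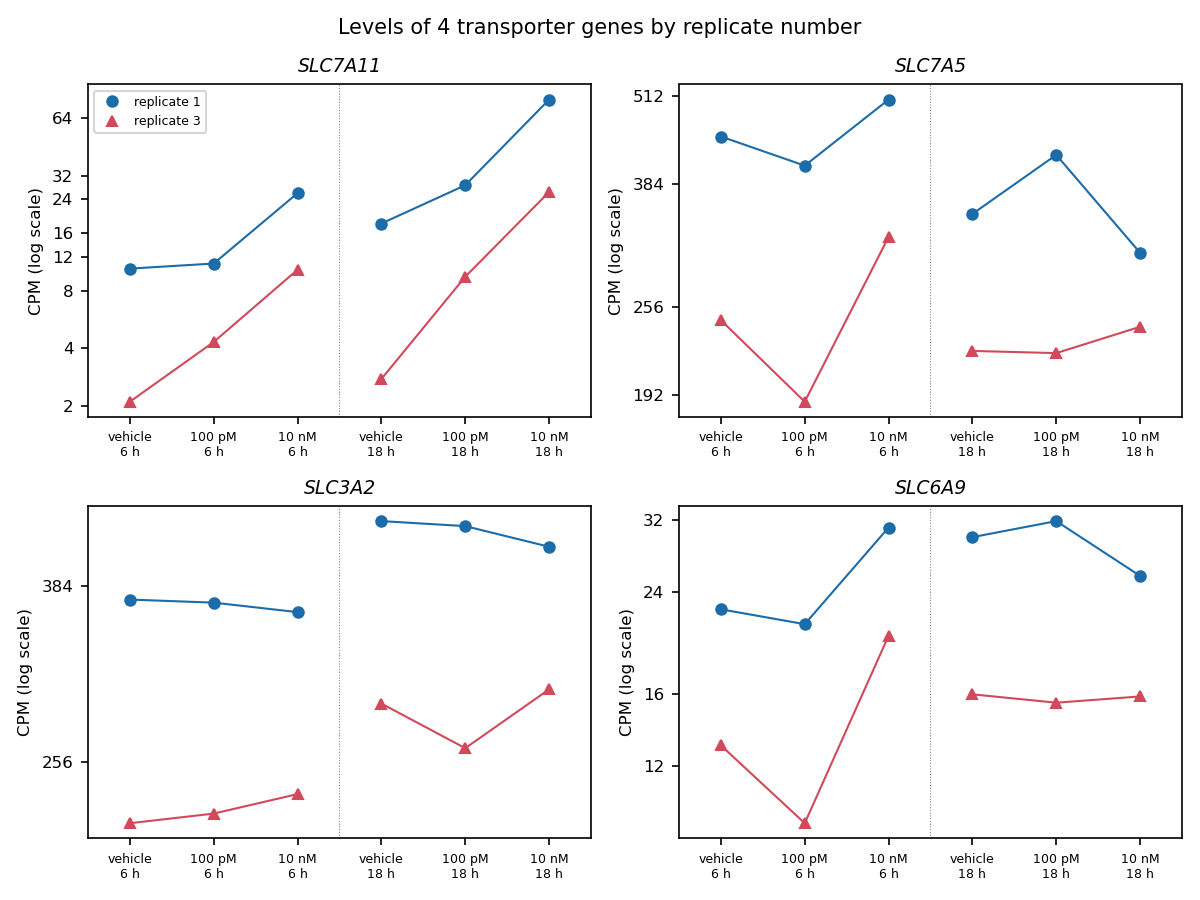
CPM (log axis) of 4 transporters in the 6 groups, with replicate 1 as circles and replicate 3 as triangles and lines joining libraries of 1 replicate number within a time. Replicate 1 lies above replicate 3 in every group of each panel, and the 2 SLC7A11 lines both climb with dose.

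Of the 39 tested transporters, 12 were higher in replicate 1 than in replicate 3 in all 6 groups (30.8%, against 21.1% of all genes): SLC1A5, SLC36A1, SLC38A1, SLC38A7, SLC3A2, SLC43A1, SLC43A3, SLC6A8, SLC6A9, SLC7A1, SLC7A11 and SLC7A5. SLC6A3 and SLC6A17 were lower in all 6 (5.13%, against 20.4%). The ratio of replicate 1 to replicate 3 was 1.39 to 1.67 for SLC3A2, 1.27 to 2.17 for SLC7A5 and 1.54 to 2.21 for SLC6A9. Of 18 genes of the amino acid response, 13 were likewise higher in replicate 1 in all 6 groups (72.2%), among them ASNS (ratios of 1.66 to 2.21), which makes asparagine, CHAC1 (1.69 to 3.74), which degrades glutathione, and ATF4 itself (1.28 to 1.56). What the replicate numbers stand for is not given in the labels, and the part of this split in the transporter results was not tested.

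The 2 tested cationic carriers moved in opposite directions. SLC7A1 (CAT1), which takes up arginine and lysine, had 78.4 and 51.9 CPM in vehicle at 6 h, 87.9 and 51.8 CPM at 100 pM and 177 and 145 CPM at 10 nM. After 18 h it had 94.4 and 64.5, 119 and 88.8, and 135 and 98.3 CPM. The 10 nM libraries stood clear of all others at 6 h, a rise of 1.30 ± 0.32 over vehicle (edgeR adjusted p = 0.0114) and of 1.20 ± 0.32 over 100 pM (0.0185). At 18 h it was not called (0.39 ± 0.32 at 100 pM, adjusted p = 0.514, and 0.55 ± 0.32 at 10 nM, 0.221). The 6 h calls were lost without vehicle 3 (0.0832) or 10 nM 1 (0.0618) against vehicle, and without 100 pM 3 (0.102) or 10 nM 1 (0.0918) against 100 pM.

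SLC7A2 (CAT2), the other cationic carrier, had 2.98 and 3.28 CPM in vehicle at 6 h, 1.59 and 1.94 CPM at 100 pM and 0.803 and 0.564 CPM at 10 nM. The 18 h levels were 3.94 and 3.57 CPM, 0.987 and 0.788 CPM, and 0.545 and 0.169 CPM. The 3 treatments did not overlap at either time, with the lowest values at 10 nM. The fall at 10 nM was -2.19 ± 0.40 (edgeR adjusted p = 0.00229) at 6 h and -3.39 ± 0.43 (0.000424) at 18 h, and that at 100 pM was called at 18 h (-2.08 ± 0.39, 0.0116). At 6 h, 10 nM was also below 100 pM (-1.36 ± 0.40, 0.0261), a call lost without 100 pM 3 (0.118), 10 nM 1 (0.0601) or 10 nM 3 (0.148). The call at 100 pM for 18 h was lost without vehicle 1 (0.0642), 100 pM 1 (0.0510) or 100 pM 3 (0.0826) and with the libraries of 18 h alone (0.0713), and the fall at 10 nM for 18 h was -4.45 without 10 nM 1 and -2.79 without 10 nM 3, both called.

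Of the 7 SLC1 genes, which hold the sodium-driven carriers of glutamate and of small neutral amino acids, 4 were tested, and at 10 nM for 6 h all 4 were called, 3 higher and SLC1A2 lower, where 42.0% of all genes were called. At 18 h, 2 of the 4 were called at 10 nM (34.1% of all genes) and 3 at 100 pM (10.5%). At 100 pM for 6 h, 0 were called (3.48%). SLC1A4 (ASCT1), a carrier of serine, alanine and cysteine, had 22.9 and 25.3 CPM in vehicle at 6 h, 30.0 and 29.1 CPM at 100 pM and 103 and 110 CPM at 10 nM. Its levels at 18 h were 24.2 and 26.1, 53.8 and 65.6, and 66.8 and 70.0 CPM. The 10 nM level was thus high at 6 h and lower at 18 h, whereas the 100 pM level was near vehicle at 6 h and above it at 18 h. The rise was 2.14 ± 0.11 at 10 nM for 6 h (edgeR adjusted p = 3.36e-06), 1.25 ± 0.11 at 100 pM for 18 h (0.000260) and 1.44 ± 0.11 at 10 nM for 18 h (2.38e-05). At 6 h, 10 nM was 1.85 ± 0.11 above 100 pM (9.19e-06).

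SLC1A4 was also the single transporter whose 10 nM response was called different between the times (1 of 39, 2.56%, against 10.5% of all genes, 4.55% higher and 5.99% lower), by -0.70 ± 0.15 from 6 h to 18 h (edgeR adjusted p = 0.0229). That call was lost when any 1 of the 8 libraries in it was left out (adjusted p from 0.0538 to 0.0819). For the 100 pM response no transporter was called different between the times by edgeR (0 of 39, against 0.0144% of all genes). At an unadjusted p under 0.05 edgeR gave 4 transporters and 988 genes in all. DESeq2 called 2 of 31 (against 0.844% of all genes).

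SLC1A5 (ASCT2), the main glutamine carrier of many tumour cells, had 130 and 109 CPM in vehicle at 6 h, 142 and 113 CPM at 100 pM and 261 and 211 CPM at 10 nM. After 18 h the levels were 149 and 115, 220 and 173, and 229 and 165 CPM. Both doses lay above vehicle at 18 h and overlapped each other. The 6 h rise at 10 nM was 0.98 ± 0.22 over vehicle (edgeR adjusted p = 0.00719) and 0.89 ± 0.22 over 100 pM (0.0127). At 18 h the values were 0.58 ± 0.22 at 100 pM (0.137) and 0.58 ± 0.22 at 10 nM (0.0729), neither called, although DESeq2 called the latter (0.0360), as did edgeR without 10 nM 3 (0.0373). Against vehicle the 6 h call was lost without vehicle 3 (0.0561) or 10 nM 1 (0.0501), and against 100 pM without 100 pM 3 (0.0778) or 10 nM 1 (0.0802).

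SLC1A2 and SLC1A1 are glutamate carriers, EAAT2 and EAAT3. SLC1A2 had 12.01 and 17.1 CPM in vehicle at 6 h, 6.93 and 10.3 CPM at 100 pM and 2.68 and 2.20 CPM at 10 nM, and 9.51 and 14.6, 4.44 and 5.94, then 3.01 and 2.22 CPM at 18 h. No treated library reached a vehicle library of its time, and at both times 10 nM was lowest. Its fall was -2.57 ± 0.33 (edgeR adjusted p = 0.000336) at 10 nM for 6 h, where it was also below 100 pM (-1.81 ± 0.32, 0.00253), -1.22 ± 0.31 (0.0389) at 100 pM for 18 h and -2.21 ± 0.32 (0.000945) at 10 nM for 18 h. The call at 100 pM was lost without any 1 of its 4 libraries, namely vehicle 1 (0.0524), vehicle 3 (0.201), 100 pM 1 (0.174) and 100 pM 3 (0.0919), and with the libraries of 18 h alone (0.0957).

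SLC1A1 had 3.69 and 4.02 CPM in vehicle at 6 h, 4.75 and 5.20 CPM at 100 pM and 5.54 and 6.66 CPM at 10 nM, and at 18 h 3.44 and 3.33, 5.25 and 6.14, then 3.96 and 3.46 CPM. At 18 h its 100 pM libraries were the highest and its 10 nM libraries were close to vehicle. It rose at 10 nM for 6 h (0.66 ± 0.17, edgeR adjusted p = 0.0126) and at 100 pM for 18 h (0.75 ± 0.17, 0.0257), and 10 nM was below 100 pM at 18 h (-0.62 ± 0.17, 0.0267). At 6 h the call was lost without vehicle 1 (0.0757) or 10 nM 3 (0.0958). The 100 pM call was lost with the libraries of 18 h alone (0.105) and without vehicle 1 (0.130), vehicle 3 (0.131), 100 pM 1 (0.0508) or 100 pM 3 (0.138). The dose difference was lost with the libraries of 18 h alone (0.0794) and without 100 pM 3 (0.146), 10 nM 1 (0.0616) or 10 nM 3 (0.121).

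**Figure D3:**
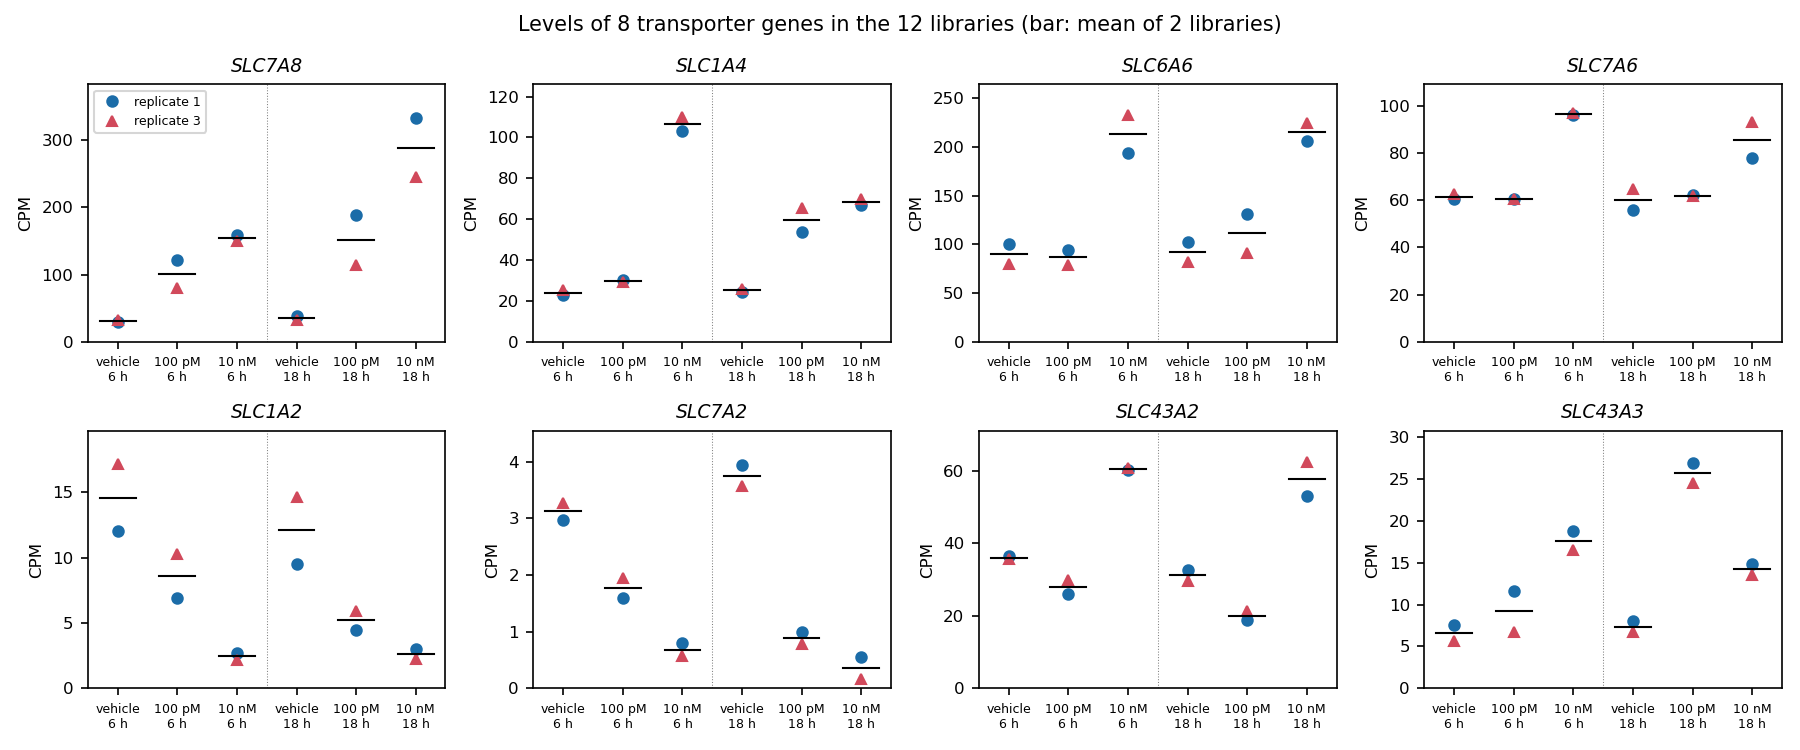
CPM of 8 transporters in each of the 12 libraries (circles, replicate 1, and triangles, replicate 3) by treatment and time, with a bar at the mean of 2. SLC7A8 climbs to 333 and 245 CPM at 10 nM for 18 h, SLC1A2 and SLC7A2 are lowest at 10 nM, and SLC43A2 dips at 100 pM and SLC43A3 peaks at 100 pM for 18 h.

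Of the 3 SLC43 facilitators, SLC43A2 and SLC43A3 were called different between the doses at 6 h (66.7%, against 37.0% of all genes) and at 18 h (66.7%, against 26.2%). The share of all genes called at both times was not counted. SLC43A2 (LAT4), which lets leucine, isoleucine, methionine and phenylalanine pass, had 36.4 and 35.6 CPM in vehicle at 6 h, 26.0 and 29.8 CPM at 100 pM and 60.3 and 60.8 CPM at 10 nM. After 18 h it had 32.7 and 29.6 CPM, 18.8 and 21.3 CPM, and 52.9 and 62.3 CPM. At both times the 100 pM libraries lay below and the 10 nM libraries above vehicle. The fall at 100 pM was called at 18 h (-0.64 ± 0.11, edgeR adjusted p = 0.00899) and the rise at 10 nM at 6 h (0.75 ± 0.11, 0.000771) and 18 h (0.89 ± 0.11, 0.000405). Between the doses the difference was 1.12 ± 0.11 (0.000123) at 6 h and 1.52 ± 0.11 (4.17e-05) at 18 h. The fall at 100 pM lost its call without vehicle 1 (0.0714) or 100 pM 1 (0.0592) and with the libraries of 18 h alone (0.0636).

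SLC43A3, which belongs to this family and is known as a carrier of purine nucleobases, showed another order. It had 7.55 and 5.61 CPM in vehicle at 6 h, 11.6 and 6.71 CPM at 100 pM and 18.7 and 16.5 CPM at 10 nM, and at 18 h 8.03 and 6.72, 26.8 and 24.5, then 14.8 and 13.6 CPM. It was highest at 10 nM at 6 h and at 100 pM at 18 h. Against vehicle it rose by 1.42 ± 0.25 at 10 nM for 6 h (edgeR adjusted p = 0.00203), 1.80 ± 0.25 at 100 pM for 18 h (0.00317) and 0.94 ± 0.25 at 10 nM for 18 h (0.0182). The 10 nM level was above that at 100 pM at 6 h (0.94 ± 0.25, 0.0165) and below it at 18 h (-0.85 ± 0.24, 0.0318). The 18 h dose difference lost its call without any 1 of its 4 libraries, 100 pM 1 (0.115), 100 pM 3 (0.0820), 10 nM 1 (0.103) and 10 nM 3 (0.108). The 6 h dose difference lost it without 100 pM 3 (0.0632, 0.62 on the log2 scale) or 10 nM 1 (0.0831) and with the libraries of 6 h alone (0.0558), and the 10 nM rise at 18 h without vehicle 3 (0.107) or 10 nM 1 (0.0781). SLC43A1 (LAT3) was not called and ran from 1.30 to 3.83 CPM.

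Among the SLC38 carriers, 7 of 10 had enough counts to test, and 3 were called against vehicle, all higher and all at 10 nM, with 1 at 6 h (14.3%, against 42.0% of all genes) and 2 at 18 h (28.6%, against 34.1%). SLC38A1 (SNAT1), which takes up glutamine, had 593 and 404 CPM in vehicle at 6 h, 737 and 614 CPM at 100 pM and 761 and 609 CPM at 10 nM. The 18 h levels were 650 and 463, 870 and 662, and 1257 and 943 CPM. All treated libraries lay above both vehicle libraries of their time, and the rise was called at 10 nM for 18 h (0.98 ± 0.26, edgeR adjusted p = 0.0178). SLC38A2 (SNAT2), the carrier that cells raise when amino acids are short, had 564 and 495 CPM in vehicle at 6 h, 601 and 571 CPM at 100 pM and 555 and 564 CPM at 10 nM, and 560 and 500, 524 and 491, then 729 and 650 CPM at 18 h. Its 10 nM libraries at 18 h were above the other 10, by 0.38 ± 0.10 against vehicle (0.0192) and 0.44 ± 0.10 against 100 pM (0.0123). SLC38A10 went from 106 and 118 CPM to 132 and 142 CPM at 10 nM for 6 h (0.29 ± 0.10, 0.0434).

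The calls of these rises depended on single libraries, while the rises themselves were seen within both replicate numbers. The 10 nM to vehicle ratio at 18 h was 1.93 and 2.04 for SLC38A1 and 1.30 and 1.30 for SLC38A2. For SLC38A10 at 6 h it was 1.24 and 1.21. The SLC38A1 call was lost without vehicle 3 (adjusted p = 0.114) or 10 nM 1 (0.103). The SLC38A2 call against vehicle was lost without vehicle 3 (0.129) or 10 nM 1 (0.114) and with the libraries of 18 h alone (0.0582), and against 100 pM without 100 pM 3 (0.0770) or 10 nM 1 (0.0846) and with that time alone (0.0522). The SLC38A10 call was lost without vehicle 1 (0.213), vehicle 3 (0.0618), 10 nM 1 (0.0696) or 10 nM 3 (0.204), with the libraries of 6 h alone (0.0973) and with no filter on low counts (0.0506). SLC38A9, the lysosomal carrier that signals arginine to mTORC1, was not called and ran from 20.0 to 25.0 CPM over the 12 libraries. Of the SLC36 carriers, SLC36A4 had 7.86 and 8.80 CPM in vehicle at 18 h, 10.9 and 11.5 CPM at 100 pM and 12.7 and 11.3 CPM at 10 nM. The rise at 10 nM was called (0.53 ± 0.12, edgeR adjusted p = 0.00794). That call was lost without vehicle 1 (0.45 on the log2 scale) or 10 nM 1 (0.45). SLC36A1, found on lysosomes and at the cell surface, was not called and ran from 19.9 to 45.3 CPM.

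In the SLC6 family, which carries neurotransmitters, osmolytes and amino acids with sodium and chloride, 13 members were tested. At 10 nM, 3 were higher and 2 lower at 6 h (38.5%, against 42.0% of all genes), and 4 were higher and 2 lower at 18 h (46.2%, against 34.1%), while 100 pM gave no call at either time (against 3.48% and 10.5%). The 4 higher at 18 h include SLC6A13, which had enough counts to test only through the 10 nM libraries of that time. SLC6A6, the taurine carrier, had the most counts of those called. It had 100 and 80.0 CPM in vehicle at 6 h, 94.0 and 79.0 CPM at 100 pM and 193 and 232 CPM at 10 nM, and at 18 h 102 and 82.2, 131 and 91.5, then 206 and 224 CPM. The 100 pM libraries overlapped vehicle and the 10 nM libraries stood above both. The rise at 10 nM was 1.24 ± 0.20 (edgeR adjusted p = 0.00132) at 6 h and 1.22 ± 0.20 (0.00184) at 18 h over vehicle, and 1.30 ± 0.20 (0.00124) and 0.95 ± 0.20 (0.00832) over 100 pM. The last was lost without 100 pM 3 (0.0526).

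SLC6A4, the serotonin carrier, had 2.82 and 5.38 CPM in vehicle at 6 h, 5.65 and 6.08 CPM at 100 pM and 8.03 and 9.48 CPM at 10 nM, and at 18 h 3.13 and 3.74, 5.84 and 5.09, then 8.32 and 11.6 CPM. Its levels stood in order of dose at both times. The rise was called at 10 nM (1.09 ± 0.29, edgeR adjusted p = 0.0158 at 6 h, and 1.53 ± 0.30, 0.00422 at 18 h), and the 6 h call was lost without vehicle 1 (0.0701) or 10 nM 3 (0.0846). SLC6A12, a carrier of betaine and GABA, had 1.45 and 0.650 CPM in vehicle at 18 h and 2.30 and 2.75 CPM at 10 nM (1.26 ± 0.36, 0.0250). That rise was 1.95 without vehicle 1, and was lost without vehicle 3 (0.116), 10 nM 1 (0.0540) or 10 nM 3 (0.102) and with the libraries of 18 h alone (0.0762). SLC6A16, whose substrate is not established, was lower at 10 nM than at 100 pM at 6 h (3.04 and 3.95 CPM against 4.82 and 6.00 CPM, -0.63 ± 0.20, 0.0357), a call lost without 100 pM 3 (0.230) or 10 nM 1 (0.205) and with the libraries of 6 h alone (0.0700).

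The next 3 SLC6 genes changed at very low counts, so their sizes are loose. SLC6A13, a GABA and taurine carrier that lies next to SLC6A12 on chromosome 12, had 14 counts at 10 nM for 6 h and 1 in vehicle, a ratio of 15.3 (exact 95% binomial counting interval 2.33 to 648, edgeR adjusted p = 0.0231). For 18 h the counts were 27 at 10 nM and 0 at 100 pM, which makes it at least 4.73-fold higher (floor of 3 counts per library, adjusted p = 0.00538). SLC6A13 had enough counts to test only through the 10 nM libraries of 18 h, so its 18 h calls are no independent support for a rise. Against 100 pM at 6 h the ratio was 14.8 (2.26 to 628, 0.0274), and at 18 h its 0.459 and 0.309 CPM at 10 nM compared with 0.0839 and 0.0812 CPM in vehicle (0.0442). DESeq2 did not call SLC6A13 against vehicle (0.0637 at 6 h, 0.140 at 18 h) or against 100 pM at 6 h (0.0685). The 18 h call against vehicle was lost without any 1 of its 4 libraries, namely vehicle 1 (0.157), vehicle 3 (0.162), 10 nM 1 (0.174) and 10 nM 3 (0.0763), with that time alone (0.0577) and with no filter on low counts (0.0698). The single vehicle count at 6 h was in vehicle 1. The 6 h call against vehicle was lost without vehicle 3 (0.114) or 10 nM 3 (0.108), and that against 100 pM without 100 pM 1 (0.125) or 10 nM 3 (0.122).

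SLC6A14, a broad carrier of neutral and cationic amino acids, had 0.534 and 0.768 CPM in vehicle at 6 h, 0.269 and 0.657 CPM at 100 pM and 0.0554 and 0.0846 CPM at 10 nM. It fell at 10 nM for 6 h (-3.16 ± 0.74, edgeR adjusted p = 0.00845) and was also below 100 pM (-2.65 ± 0.76, 0.0244). For 18 h the counts were 3 at 10 nM against 53 in vehicle, a ratio of 0.0584 (0.0117 to 0.180, 0.00500). SLC6A20, a proline carrier, fell at 10 nM from 0.534 and 0.948 CPM to 0.111 and 0.226 CPM at 6 h (-2.12 ± 0.55, 0.0142) and from 1.29 and 0.921 CPM to 0.201 and 0.506 CPM at 18 h (-1.63 ± 0.49, 0.0325). The SLC6A14 calls at 6 h were lost without 10 nM 1 (0.0632 against vehicle, 0.129 against 100 pM), and the latter also without 100 pM 3 (0.160) or 10 nM 3 (0.0883), while its 18 h log2 value was -3.06 without 10 nM 1 and -7.76 without 10 nM 3. The SLC6A20 calls were lost at 6 h without vehicle 3 (0.0925) or 10 nM 1 (0.0976), and at 18 h without vehicle 1 (0.149), vehicle 3 (0.0569) or 10 nM 1 (0.166) and with that time alone (0.0605), and the 18 h value was -2.45 without 10 nM 3.

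The SLC6 genes that were not called included the creatine carrier SLC6A8 (104 to 271 CPM) and the glycine carrier SLC6A9 (9.57 to 31.8 CPM), both higher in replicate 1 of every group. SLC6A2, SLC6A3, SLC6A11 and SLC6A17 stayed between 0.0282 and 2.73 CPM in all 12 libraries.

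Compared per kilobase of exon, a scale on which genes can be set side by side, 23 of the 39 tested transporters reached 1 CPM per kilobase as the mean of vehicle at 6 h. The highest there were SLC3A2 (112 ± 39.8 CPM per kilobase, SD, n = 2), SLC38A2 (106 ± 9.83), SLC7A5 (75.6 ± 31.3), SLC38A1 (53.5 ± 14.4), SLC6A8 (37.7 ± 11.5) and SLC1A5 (35.9 ± 4.51). In that order each of these 6 overlapped its neighbours among them within 1 SD. SLC7A8 had 6.50 ± 0.504, not apart from its neighbours SLC38A9 (6.59 ± 0.773) and SLC38A7 (6.33 ± 1.56). At 10 nM for 18 h the order was SLC38A2 (138 ± 11.2), SLC3A2 (136 ± 31.2), SLC38A1 (118 ± 23.8) and then SLC7A8 (61.4 ± 13.2), SLC7A5 (59.6 ± 10.2) and SLC1A5 (59.1 ± 13.7), and within the first 3 and within the last 3 the levels did not differ beyond their spread. Exon lengths came from GENCODE v29 on another genome build than the counts, so the scale is approximate.

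**Figure D4:**
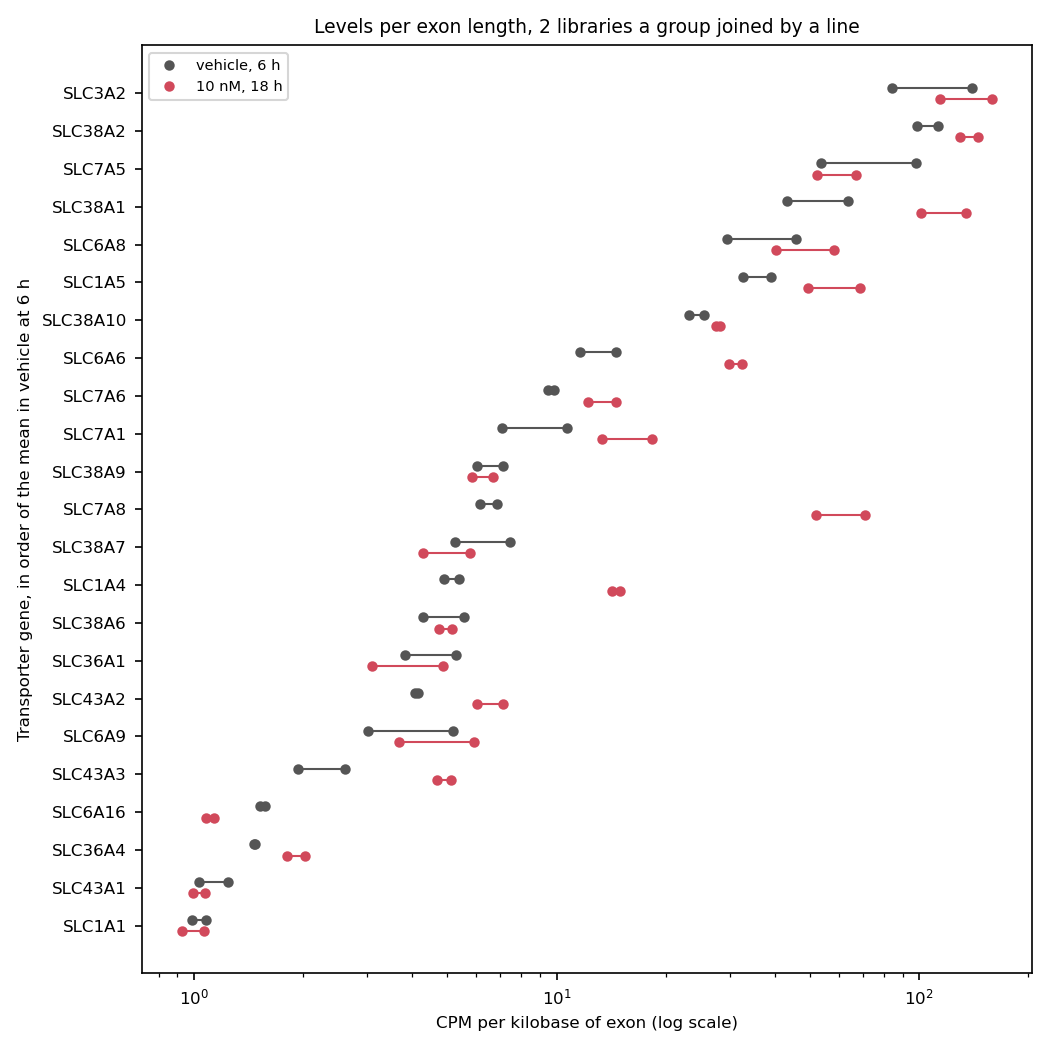
Levels per exon length (CPM per kilobase, log axis) of 23 transporters, with the 2 libraries of vehicle at 6 h in grey and of 10 nM at 18 h in red, each pair joined by a line. SLC7A8 moves from 6.50 ± 0.504 to 61.4 ± 13.2, to the level of SLC7A5, while the pairs of SLC3A2 overlap.

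The 19 transporters that were not tested were silent or nearly so. SLC1A7, SLC6A5, SLC6A7, SLC6A18, SLC7A3 and SLC7A4 had no count in any library, which allows up to 3 counts in each. The rest had at most 7 counts in a library. SLC3A1, the heavy chain of the kidney and gut cystine carrier, had 7 counts in 10 nM 1 at 18 h and 0 in 10 nM 3, and SLC7A9, its light chain, was tested and not called (0.197 to 0.794 CPM). SLC6A19, the main neutral amino acid carrier of gut and kidney, had 12 counts at 10 nM for 18 h and 0 in vehicle, which makes it at least 2.06-fold higher (floor of 3 counts per library, with no test).

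Lists of other genes of amino acid supply, which hold no transporter described above, were counted in the same fits, and ASNS, CHAC1 and SESN2 each stand in a pair of them. At 10 nM, 22.6% of all genes were higher and 19.4% lower at 6 h, and 19.0% and 15.2% at 18 h, against which the counts below are to be read. Of 18 genes of the amino acid response, 6 were higher and 2 lower at 10 nM for 6 h (median log2 fold change 0.64, against -0.020 over all genes), and 4 were higher and 2 lower at 18 h (0.61, against -0.0020). DDIT4, an inhibitor of mTORC1, rose at 10 nM by 0.94 ± 0.14 (edgeR adjusted p = 0.000686) at 6 h and 1.61 ± 0.14 (4.98e-05) at 18 h. At 100 pM it had 118 and 130 CPM at 6 h and 145 and 110 CPM at 18 h. Those levels lay between vehicle (84.7 and 87.4, then 72.3 and 71.4 CPM) and 10 nM (150 and 179, then 224 and 213 CPM). ATF4 was not called by this fit (0.60 ± 0.30 at 10 nM for 6 h, 0.139). MYC, a regulator of several transporter genes in other cells, rose by 1.73 ± 0.33 (0.00332) at 10 nM for 6 h and 0.99 ± 0.33 (0.0466) at 18 h. The 18 h call of MYC was lost without vehicle 1 (0.105), vehicle 3 (0.195) or 10 nM 1 (0.250, 0.64 on the log2 scale), with that time alone (0.0752) and with no filter on low counts (0.0593).

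Of 32 tested genes of amino acid sensing at the lysosome, 6 were higher and 5 lower at 10 nM for 6 h and 2 were higher and 7 lower at 18 h, a smaller share than over all genes at both times. Of 15 tested mitochondrial and other amino acid carriers outside the 7 families, 5 were higher and 1 lower at 6 h and 4 were higher and 3 lower at 18 h. SLC25A18, a mitochondrial glutamate carrier, had 0.636 and 0.794 CPM in vehicle at 6 h and 12.3 and 19.7 CPM at 10 nM (4.48 ± 0.40, edgeR adjusted p = 5.41e-05), and at 18 h the rise was 5.32 ± 0.42 (3.42e-05), or 5.91 without vehicle 3. Its 100 pM levels overlapped those at 10 nM at both times. They were 15.3 and 22.4 CPM at 6 h, and 25.5 and 28.0 CPM at 18 h, where 10 nM had 18.6 and 28.9 CPM. Of 22 tested enzymes that use these amino acids, 7 were higher and 2 lower at 10 nM at both times. GLUL, which makes glutamine, rose at 10 nM by 1.23 ± 0.17 (0.000522) at 6 h and 2.42 ± 0.18 (2.22e-05) at 18 h. At 6 h its level was higher at 100 pM (957 and 844 CPM) than at 10 nM (440 and 529 CPM). Of 12 genes for transporter partners and traffic, 5 were higher at 6 h and 7 at 18 h, and none was lower. NEDD4L, a ubiquitin ligase that marks membrane carriers for removal, rose at 10 nM by 0.50 ± 0.07 (0.000679) at 6 h and 1.02 ± 0.07 (2.05e-05) at 18 h. At 100 pM it rose by 1.04 ± 0.07 (edgeR adjusted p = 0.000130) and 1.07 ± 0.07 (0.000110). At 6 h, 10 nM was below 100 pM (-0.54 ± 0.07, 0.000574). SGK1, a kinase that acts on NEDD4L, went from at most 0.352 CPM in the 4 vehicle libraries to at least 8.996 CPM in the 8 treated ones. At 6 h SGK1 had 38.1 and 62.25 CPM at 100 pM, above its 8.996 and 18.1 CPM at 10 nM.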

How the data were processed

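RNA of T47D cells was sequenced in 12 libraries, 2 in each of 6 groups set by the labels. The authors deposited raw gene counts, 1 whole number per gene symbol and library. Per the submitters' processing notes, the tools were STAR and DESeq2 and the build hg19. Not given in the sources used here are tool versions, the annotation and whether counting used strand, so genes that overlap an antisense gene, or have a near copy, may share reads.

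Counts were tested with edgeR 4.0.16 (limma 3.58.1, R 4.3.3): TMM scaling, filterByExpr with a minimum count of 10, and 1 robust quasi-likelihood fit of all 12 libraries with a coefficient per group (6 residual degrees of freedom). P-values were adjusted by Benjamini-Hochberg over all 13872 genes tested, and a gene was called at an adjusted p under 0.05. Fold changes are log2 with a standard error (SE). CPM divide the counts by the TMM-scaled library size, and CPM per kilobase divide these by exon lengths from GENCODE v29. Promoter windows are from RefSeq GRCh38.p14. Intervals and floors cover counting error only.

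On simulated counts with 200 changed genes among 13872, drawn for 10 nM versus vehicle at 6 h, 19.4% of 1.5-fold, 65.7% of 2-fold and 84.8% of 4-fold changes were called, with 4 false calls. In the data 42.0% of all genes were called there. The simulated libraries were drawn without any tie by replicate number, so these shares need not hold for the data. The members and lists were chosen with earlier results of these data known. By the rule for named genes, any transporter could be named, and other genes were the lists' strongest calls plus MYC, ATF4, SGK1 and NEDD4L. Alternatives were DESeq2 1.42.0, RLE scaling, no filter on low counts, a replicate block, the libraries of that time alone and leaving out each library in turn.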

Additional observations from a re-analysis of the deposited data

Results flagged for a closer look

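SLC1A4, the serine and alanine carrier ASCT1, drew attention because its response to 10 nM differed between the times by a test of the difference itself. Its level went from 22.9 and 25.3 CPM in vehicle to 103 and 110 CPM at 10 nM for 6 h, and from 24.2 and 26.1 CPM to 66.8 and 70.0 CPM for 18 h. The change in the log2 response from 6 h to 18 h was -0.70 ± 0.15 (SE, edgeR adjusted p = 0.0229), and the response was smaller at 18 h within both replicate numbers (4.49 to 2.76 times vehicle in replicate 1, 4.36 to 2.69 in replicate 3). The adjusted p was 0.0538 to 0.0819 when 1 of the 8 libraries was left out.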

How the results depend on the processing

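No called transporter result changed direction under any alternative run. Over all called values, leaving out 1 library lost 90 calls and kept 170, the libraries of that time alone lost 15 and kept 46, DESeq2 lost 3 and kept 61, no filter on low counts lost 2 and kept 62, and RLE scaling kept 64. Leaving out 1 library gave 0 to 1 called transporters at 100 pM for 6 h, 11 to 15 at 10 nM for 6 h, 6 to 12 between the doses at 6 h, 3 to 5 at 100 pM for 18 h, 10 to 16 at 10 nM for 18 h, 3 to 8 between the doses at 18 h and 0 to 1 for the change in the 10 nM response, where the 1 was another gene than SLC1A4. In each of these comparisons fewer of all genes were called too when 1 library was left out. DESeq2 called 14 of 41 between the doses at 18 h (against 28.5% of all genes) and 2 of 31 for the change in the 100 pM response (against 0.844%). With the libraries of 18 h alone, 3 of 36 were called at 100 pM (against 4.79% of all genes) and 5 of 36 between the doses (against 19%). Among uncalled values, DESeq2 called SLC1A5 at 10 nM for 18 h, and leaving out 1 library turned the sign of SLC7A11 at 100 pM (-0.53 to 1.88 at 6 h, -0.13 to 2.78 at 18 h) and, at 10 nM, of SLC3A2 (-0.32 to 0.43 at 6 h, -0.30 to 0.30 at 18 h) and SLC7A5 (-0.11 to 0.76 at 6 h, -0.35 to 0.30 at 18 h). The cause was not tested.

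The labels do not say what a replicate number shares. Deviations of same-numbered libraries from their group means correlated across genes at r = 0.604 to 0.819 over 15 pairs of groups, a hint from the data and not from the design. With the number as a replicate block more of all genes were called too, and their share is given in brackets. At 6 h the called transporters were 6 at 100 pM (12.2%), 27 at 10 nM (62.4%) and 21 between the doses (59.3%). At 18 h they were 16 at 100 pM (34.1%), 25 at 10 nM (56%) and 21 between the doses (50.2%). The changes in the 100 pM and 10 nM responses gave 3 (5.6%) and 11 (35.1%). Vehicle at 18 h against 6 h gave 0 (0.0288%), with 6 transporters and 1343 genes at an unadjusted p under 0.05. All 64 called values kept their call with the block. In that fit SLC7A11 at 10 nM was 1.68 (edgeR adjusted p = 0.000801) at 6 h and 2.52 (4.39e-05) at 18 h. It also called, among values described as not called, SLC7A11 at 100 pM for 18 h (1.03, 0.0187), SLC1A5 at 18 h (0.58 at 100 pM, 2.94e-05, and 0.57 at 10 nM, 9.49e-06), SLC7A1 at 18 h (0.40 at 100 pM, 0.00601, and 0.56 at 10 nM, 0.000254) and ATF4 at 10 nM for 6 h (0.61, 9.26e-06). At 10 nM for 6 h its added calls included SLC6A8 (0.70, 2.63e-05), SLC6A9 (0.55, 0.00137), SLC36A1 (0.57, 0.000293), SLC43A1 (-0.88, 0.00446) and SLC6A2 (-1.98, 0.0391). At 10 nM for 18 h they included SLC7A9 (-1.19, 0.0481), and between the doses at 6 h SLC7A5 (0.53, 0.0119). SLC7A11 was called between the doses at 6 h (1.26, edgeR adjusted p = 0.00422) and 18 h (1.49, 0.00112). The genes named here are only some of those the block added, and its added calls at 100 pM for 6 h are not named. SLC3A2 was not called by it in any of the 6 comparisons of treatments, with a log2 value of 0.03 and an SE of 0.071 at 10 nM for 6 h. Statements that a gene was not called therefore hold for the fit without the block. With 2 libraries a group, small changes may have gone uncalled, as most 1.5-fold changes did in the simulation. Genes at a few counts per library have loose sizes.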
